A study of Rattus norvegicus with 24 samples.

Results

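The genes described here are 45 genes of the cell cycle and of DNA replication, 19 that act mainly at the G1/S transition and in S phase and 26 that act mainly in G2 and mitosis (G2/M). Each was matched by the gene name that the scanner files give to a probe, and the probe with the highest mean was used. By that rule 44 of the 45 had a probe, 19 G1/S and 25 G2/M members, out of 20286 genes tested; Mki67, the gene of the proliferation marker Ki-67, had no probe of that name and is not analysed here. All 44 passed the filter on dim probes. They were measured in thyroid glands of RccHan Wistar rat pups on 24 one-colour Agilent arrays, 1 sample per array. Acrylamide, a reactive small molecule, was dosed by way of drinking water at 3 mg per kg and day, to the dams from gestational day 6 and on to the pups until postnatal day 35 ± 3, and controls had tap water. The 6 groups of 4 arrays were control and acrylamide females at night (10 PM), control and acrylamide males at night, and control and acrylamide females in the morning (10 AM). The study set changes in gene expression beside hormone levels in plasma. Which animal a replicate number stands for is not in the labels, so p-values here reflect only how far these samples spread.

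A cell enters the cycle when D-type cyclins and their kinases release E2F factors from the retinoblastoma protein. E2F factors switch on the G1/S genes, which license replication origins, make nucleotides and copy DNA. Later in the cycle MYBL2 and FOXM1, with the MuvB proteins, switch on the G2/M genes, which condense the chromosomes, attach them to the spindle and trigger anaphase. Follicular cells of the adult thyroid divide rarely, whereas the gland of a growing pup still enlarges.

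The promoters of the G1/S and G2/M members differ in their letters, and a few are shown because the values below are compared between those groups. RefSeq promoters of the rat assembly GRCr8, 250 bases before to 50 after the start, were in the table used for 35 of the 45 members (14 G1/S and 21 G2/M). Exact matches were counted on both strands, overlapping ones included, for the cell cycle homology region (CHR, TTTGAA or TTTAAA), the CCAAT box (CCAAT) and the E2F site (TTTGGCGC, TTTCGCGC, TTTCCCGC or TTTGCCGC). A CHR was in 19 of 21 G2/M and 2 of 14 G1/S promoters, and in 28.3% of all 33469 promoters of the same length. An E2F site was in 8 of 14 G1/S promoters (Mcm2, Mcm3, Mcm5, Mcm6, Mcm7, Cdt1, Gmnn and Tyms) and 1 of 21 G2/M promoters (Cdk1), against 2.14% of all. A CCAAT box was in 17 of 21 G2/M and 8 of 14 G1/S promoters, against 37.5% of all. These matches are descriptions of the letters, not evidence of binding.

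The 250 bases before the start follow for the 4 G2/M members that passed the test in the morning, with CHR and CCAAT matches (or their reverse complements) in capitals. Top2a lies at chr10:84473094-84473343, Cenpf at chr13:103760887-103761136, Cenpa at chr6:31431553-31431802 and Ccnb2 at chr8:79981659-79981908, all on the minus strand, and each is written 5′ to 3′ on the strand of its gene.
Top2a: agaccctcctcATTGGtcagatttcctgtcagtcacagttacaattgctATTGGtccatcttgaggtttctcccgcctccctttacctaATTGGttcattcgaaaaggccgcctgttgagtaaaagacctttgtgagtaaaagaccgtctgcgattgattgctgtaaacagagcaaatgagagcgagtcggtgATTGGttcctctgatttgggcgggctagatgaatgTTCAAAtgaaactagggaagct
Cenpf: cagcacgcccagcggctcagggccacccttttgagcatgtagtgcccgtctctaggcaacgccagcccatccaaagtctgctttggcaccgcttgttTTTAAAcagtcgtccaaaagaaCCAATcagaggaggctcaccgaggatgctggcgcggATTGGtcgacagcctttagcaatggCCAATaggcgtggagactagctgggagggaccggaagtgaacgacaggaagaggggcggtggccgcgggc
Cenpa: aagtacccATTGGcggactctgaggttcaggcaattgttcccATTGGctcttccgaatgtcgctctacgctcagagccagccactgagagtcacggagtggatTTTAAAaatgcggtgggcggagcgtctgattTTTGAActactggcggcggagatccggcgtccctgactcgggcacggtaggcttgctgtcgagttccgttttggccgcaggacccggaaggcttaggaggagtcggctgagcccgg
Ccnb2: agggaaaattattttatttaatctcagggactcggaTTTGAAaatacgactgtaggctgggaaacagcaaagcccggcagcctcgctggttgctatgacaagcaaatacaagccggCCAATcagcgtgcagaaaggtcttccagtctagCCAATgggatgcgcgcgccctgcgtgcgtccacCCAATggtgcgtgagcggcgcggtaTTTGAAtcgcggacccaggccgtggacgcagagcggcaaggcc
Each of the 4 holds at least 1 CHR and at least 2 CCAAT boxes, and none of the 4 holds an E2F match. For contrast, Mcm5 (chr19:13488563-13488812, plus strand) and Mcm6 (chr13:42404353-42404602, minus strand) encode subunits of the replicative helicase, and here the capitals mark E2F and CCAAT matches.
Mcm5: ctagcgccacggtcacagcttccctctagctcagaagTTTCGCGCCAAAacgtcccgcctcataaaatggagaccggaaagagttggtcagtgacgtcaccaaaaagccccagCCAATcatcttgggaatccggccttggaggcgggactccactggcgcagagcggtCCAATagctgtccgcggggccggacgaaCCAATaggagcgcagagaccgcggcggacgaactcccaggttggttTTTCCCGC
Mcm6: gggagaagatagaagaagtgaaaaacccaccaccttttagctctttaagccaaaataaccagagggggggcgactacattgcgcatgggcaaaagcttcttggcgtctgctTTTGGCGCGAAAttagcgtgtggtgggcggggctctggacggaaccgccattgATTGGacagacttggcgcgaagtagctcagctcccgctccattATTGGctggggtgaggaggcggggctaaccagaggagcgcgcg
Mcm5 has 3 E2F matches, 2 of them overlapping, Mcm6 has 2 that overlap, and neither has a CHR.

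Several arrays stood apart before any comparison. Levels are log2 of the processed signal minus the 75th percentile of the array, so 0 is that percentile, and they are compared only within a probe. On female morning acrylamide replicate 1 thyroglobulin (Tg) stood at -0.85, and the parathyroid hormone gene Pth was at -5.54 there. Tg, which defines follicular cells, was at 6.43 or higher on every other array. Keratins of squamous epithelium were high on morning acrylamide replicates 1 and 3 (Krt13 at 3.57 and 3.28). The means of the T cell and thymocyte lists were highest on morning acrylamide replicate 2, at 1.24 and 0.64, though not every marker was (Cd4, Cd6 and Cd1d1 were not). The B cell list was at -3.82 there, within the range of the other arrays (-5.60 to -2.30). The Y-linked Ube1y1 was at -6.44 on male acrylamide replicate 4, against -4.16 to -3.13 on the other male arrays, and at -4.56 on morning control replicate 4, against -8.89 to -7.14 on the other female arrays. Time of day coincided with slide and scan session, sex at night with slide, and treatment at night with the row of the slide, so these cannot be told apart. A second probe was present for 13 members. Spots well above background made up 71.5% to 82.3% of an array, and 4 arrays per group limit the precision.

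In acrylamide females at night 43 of the 44 members had a higher mean than in the controls, by a median of 0.32 on the log2 scale against 0.02 over all genes tested. The G2/M members had a median difference of 0.39 and the G1/S members of 0.23. No member passed the test (limma, adjusted p under 0.05), as no gene of any kind did (0.0% called), and 1 member was higher at an unadjusted p under 0.05 against 0.868% of all genes. All 4 acrylamide arrays lay above all 4 controls for 10 of the 44 members, and for 3.73% of all genes tested. These 10 were Mcm3, Mcm5, Mcm6, Ccnb1, Ccnb2, Cdc25c, Aurkb, Melk, Plk1 and Foxm1.

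Among the mitotic cyclins, Ccnb1, the cyclin that activates Cdk1 at the entry into mitosis, had control levels of -3.22, -3.09, -3.43 and -3.18 and acrylamide levels of -2.66, -3.0, -2.71 and -2.45. The groups did not overlap, and the difference was 0.52 (SE 0.38; limma adjusted p = 1.00). Each SE comes from the spread of its gene within all 6 groups, the morning groups included, so it is not the scatter of the night groups alone. Ccnb2, the close relative of Ccnb1, differed by 0.60 (SE 0.36) and Bub1b, a kinase of the spindle checkpoint, by 0.52 (SE 0.42). Cdc25c, the phosphatase that activates Cdk1, gave the largest member difference, 0.96 (SE 0.39). Its control replicate 1 was far below the other controls, at -7.84 against -6.53 to -6.32. Gmnn, which blocks re-licensing of origins, differed by 0.50 (SE 0.43).

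Cdk1, the kinase that drives mitosis, had control levels of -0.29, -0.12, -0.11 and 0.14 and acrylamide levels of 0.32, -0.01, 0.07 and 0.53, which overlapped, and differed by 0.32 (SE 0.29). Top2a, the topoisomerase that untangles replicated chromosomes, had control levels of -2.22, -2.11, -2.29 and -2.14 and acrylamide levels of -1.76, -2.30, -1.60 and -1.49. Acrylamide replicate 2 lay below every control, and the difference was 0.40 (SE 0.38). Mcm5 had control levels of -2.61, -2.66, -2.67 and -2.70 and acrylamide levels of -1.85, -2.29, -2.61 and -2.06. The lowest acrylamide array was only just above the highest control, and the difference was 0.46 (SE 0.42). Pcna, the sliding clamp of the replication fork, differed by 0.22 (SE 0.32). A second probe of Mcm4, another helicase subunit, gave -0.27 (SE 0.54) where the Mcm4 probe used gave 0.05. The exception in sign was Ccnd1, cyclin D1, which links growth signals to G1, with -0.20 (SE 0.21).

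On single arrays, replicates 1 and 4 of the acrylamide females stood highest, with 43 and 41 of the 44 members above the mean of their controls, against 26 on replicate 2 and 35 on replicate 3. The T cell list was highest on replicate 3 of this group, at -0.40 against -3.83 to -2.13 on the other acrylamide arrays and -4.60 to -3.12 in the controls, and the thymocyte list was at -0.84 there. The G1/S members of replicate 3 averaged 0.03 above their controls, the lowest of the 4 acrylamide arrays. Its G2/M members averaged 0.40 above them, against 0.46, 0.13 and 0.55 on replicates 1, 2 and 4. On replicate 1 the T cell list, at -2.13, was also above every control. Its B cell list was at -2.30, against -4.54 to -3.97 in the controls. What part such cells had in the member values was not tested. Without replicate 3 the median member difference was 0.34.

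**Figure D1:**
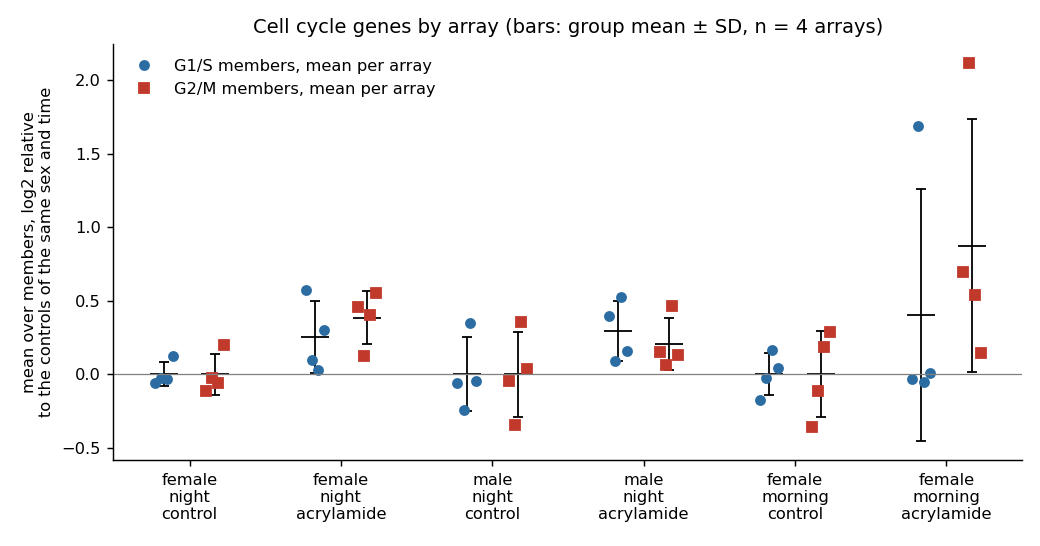
Mean over the 19 G1/S (circles) and 25 G2/M (squares) members on each array, log2 relative to the 4 controls of the same sex and time, in 6 groups of 4 arrays, with the group mean and SD as bars. Morning acrylamide replicate 2 stands at 1.69 (G1/S) and 2.12 (G2/M); the next highest value of either set, in any group, is 0.69.

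In males the members also tended to higher values with acrylamide, but less uniformly. Of the 44, 33 had a positive difference, with a median of 0.32 against 0.00 over all genes, 0.38 for G1/S and 0.26 for G2/M members. No member passed the test and no gene did (0.0% called); 3 members (Tk1, Rrm2 and Ttk) were higher at an unadjusted p under 0.05, against 6.61% of all genes. The arrays of the groups did not overlap for Tk1, Ttk and Foxm1, all higher with acrylamide, against 2.99% of all genes. Another probe of Foxm1, however, had the opposite sign, -0.61 (SE 0.62).

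The largest differences were those of Rrm2 and Tk1, of the 4 members that supply nucleotides; the other 2, Rrm1 and Tyms, differed by 0.04 (SE 0.27) and 0.33 (SE 0.32). Rrm2, the regulated subunit of ribonucleotide reductase, had control levels of 1.25, 0.94, 2.12 and 1.02 and acrylamide levels of 2.03, 2.29, 2.10 and 2.25. Control replicate 3 lay within the acrylamide range, and the difference was 0.84 (SE 0.40; limma adjusted p = 0.363). Tk1, thymidine kinase, had control levels of -0.62, -0.91, -0.0032 and -0.55 and acrylamide levels of 0.03, 0.18, 0.28 and 0.32. The lowest acrylamide array was just above the highest control, and the difference was 0.72 (SE 0.26; limma adjusted p = 0.353). Gmnn (0.71, SE 0.43), the checkpoint kinase Ttk (0.70, SE 0.32) and Bub1b (0.62, SE 0.42) were the next largest.

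Of the genes given in each comparison, Top2a had control levels of -1.44, -1.76, -0.85 and -1.84 and acrylamide levels of -0.98, -0.73, -0.91 and -0.90 and differed by 0.59 (SE 0.38). Control replicate 3 lay within the acrylamide range, so the groups overlapped. Cdk1 differed by 0.59 (SE 0.29), Ccnb1 by 0.55 (SE 0.38), Pcna by 0.49 (SE 0.32) and Ccnd1 by -0.07 (SE 0.21), which turned to 0.10 with median centring.

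Several members with negative differences were low on acrylamide replicates 2 and 4. Mcm6 had control levels of -2.20, -2.40, -1.94 and -2.35 and acrylamide levels of -1.48, -3.90, -1.71 and -3.81. Replicates 2 and 4 lay below every control and replicates 1 and 3 above every control, and the difference was -0.50 (SE 0.52). Mcm5 had control levels of -2.11, -2.28, -1.73 and -2.17 and acrylamide levels of -1.46, -3.29, -1.34 and -2.91, the same arrangement, with a difference of -0.18 (SE 0.42). Cdt1, the loader of the helicase, differed by -0.45 (SE 0.56), with replicates 2 and 4 at -6.95 and -6.32 and the other 2 acrylamide arrays at -4.01 and -3.94. On the same 2 arrays Pcna was high, at 1.90 and 1.97 against 0.65 to 1.19 on the other 6 male arrays. Tpx2, which activates Aurora A on the spindle, gave the lowest difference, -0.73 (SE 0.60), through replicate 4 alone, which was at -3.81 against -1.30 to -0.51 on the other male arrays. Without that replicate, the array with the low Ube1y1 level, Tpx2 differed by 0.00 and the median member difference was 0.34.

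Replicate 2 of the same group had the lowest skeletal muscle signal of the series, with a list mean of 0.35 against 2.23 to 7.02 elsewhere, and replicate 4 was low for Pth, at -0.23 against 7.96 to 8.44 on the other male arrays. The part of either in the member values was not tested.

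Within the helicase the members split by probe. In the males Mcm3, Mcm4 and Mcm7 had positive differences (0.38, 0.39 and 0.41) while Mcm5 and Mcm6 had negative ones; with array weights Mcm5 (0.43), Mcm6 (0.32) and Cdt1 (0.48) turned positive, as Mcm5 did (0.01) with quantile normalization. Second probes of Mcm2 and Mcm4 gave -1.23 (SE 0.60) and -1.41 (SE 0.54), where the probes used gave 0.18 and 0.39. The second Mcm4 probe was far dimmer, at -7.60 to -4.41 on the male arrays against 0.06 to 1.01 for the probe used. A second Cenpf probe gave 0.02 (SE 0.34) where the Cenpf probe used gave -0.14. The second Mcm2 probe was at -6.49 and -5.26 on acrylamide replicates 2 and 4 and at -3.14 to -2.37 on the other 6 male arrays.

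The largest acrylamide differences of the members were those of females in the morning, where 40 of the 44 had higher means with acrylamide, by a median of 0.67 against -0.11 over all genes. The G2/M members, all 25 of them positive, had a median of 0.80 and the G1/S members, 15 of 19 positive, a median of 0.35. 4 G2/M members and no G1/S member rose past the threshold (limma, adjusted p under 0.05), 4 of 44 where 2.1% of all genes were called and 0.434% were called higher. They were Top2a, the centromere genes Cenpf and Cenpa, and Ccnb2. At an unadjusted p under 0.05, 20 members were higher and 1, Ccnd1, was lower, against 8.57% and 15.3% of all genes.

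Top2a had control levels of -2.54, -2.60, -1.87 and -2.15 and acrylamide levels of -0.61, 1.06, -1.72 and -1.18. All 4 acrylamide arrays lay above all controls, replicate 2 far above, and the difference was 1.68 (SE 0.38; limma adjusted p = 0.0391). Its probe is on chromosome 10 at 87771459 to 87771518 (rn4, as in the files). A second Top2a probe differed by 0.31 (SE 0.35). Cenpf, a large kinetochore protein of late G2 and mitosis, had control levels of -5.22, -4.96, -4.50 and -5.50 and acrylamide levels of -3.0, -2.36, -4.67 and -3.65. Acrylamide replicate 3 lay among the controls, and the difference was 1.63 (SE 0.38; limma adjusted p = 0.0410). This probe, on chromosome 13 at 105921172 to 105921231, was well above background on 2 of the 4 control arrays, and a second Cenpf probe differed by 0.22 (SE 0.34).

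Cenpa, the histone H3 variant that marks centromeres, had control levels of -6.25, -5.43, -6.0 and -5.18 and acrylamide levels of -3.99, -3.03, -4.63 and -5.11. The groups did not overlap, and the difference was 1.53 (SE 0.39; limma adjusted p = 0.0466). No control array was well above background for its probe (chromosome 6 at 25688936 to 25688995), so the fold is a bound, at least 1.92-fold higher, taken against the lowest level well above background on each control array or the level of the probe where higher. Ccnb2 had control levels of -4.09, -3.22, -3.14 and -2.90 and acrylamide levels of -2.0, -0.46, -2.69 and -2.47. The groups did not overlap, and the difference was 1.43 (SE 0.36; limma adjusted p = 0.0440); the probe is on chromosome 8 at 74896165 to 74896224. Of the 4, Top2a, Cenpa and Ccnb2 were among 5 members whose arrays did not overlap, with Aurkb and Prc1, against 1.87% of all genes.

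Several members lay just outside the threshold. Aurkb, the kinase that corrects faulty spindle attachments, had control levels of -5.55, -5.39, -5.54 and -5.51 and acrylamide levels of -3.90, -2.72, -4.59 and -4.90. The groups did not overlap, and the difference was 1.47 (SE 0.40; limma adjusted p = 0.0528). Ccnb1 had control levels of -3.27, -2.93, -2.49 and -2.75 and acrylamide levels of -1.59, -0.03, -1.42 and -2.86. Replicate 4 lay among the controls, and the difference was 1.38 (SE 0.38; limma adjusted p = 0.0551). Mybl2, the G1/S member that goes on to activate the G2/M genes, differed by 1.36 (SE 0.36; limma adjusted p = 0.0520), and its second probe by 1.18 (SE 0.42).

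Cdk1 had control levels of -0.00062, 0.13, 0.74 and 0.73 and acrylamide levels of 1.04, 2.34, 0.95 and 0.50. Replicate 4 lay among the controls, and the difference was 0.80 (SE 0.29; limma adjusted p = 0.117). Mcm5 had control levels of -3.52, -3.07, -3.42 and -3.76 and acrylamide levels of -3.0, -1.17, -3.58 and -2.99. Replicate 2 was high and replicates 1, 3 and 4 were at or near the controls, with a difference of 0.76 (SE 0.42). Pcna had control levels of 1.22, 1.24, 1.43 and 1.52 and acrylamide levels of 0.93, 2.93, 1.30 and 1.28. Replicate 2 alone stood above the controls, and the difference was 0.26 (SE 0.32). Negative differences were those of Ccnd1 (-0.52, SE 0.21), Cdk2, the kinase of the E and A cyclins (-0.37, SE 0.27), Gmnn (-0.18, SE 0.43) and E2f1 (-0.09, SE 0.24); Gmnn turned to 0.04 with slide as a term and to 0.16 with array weights.

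**Figure D2:**
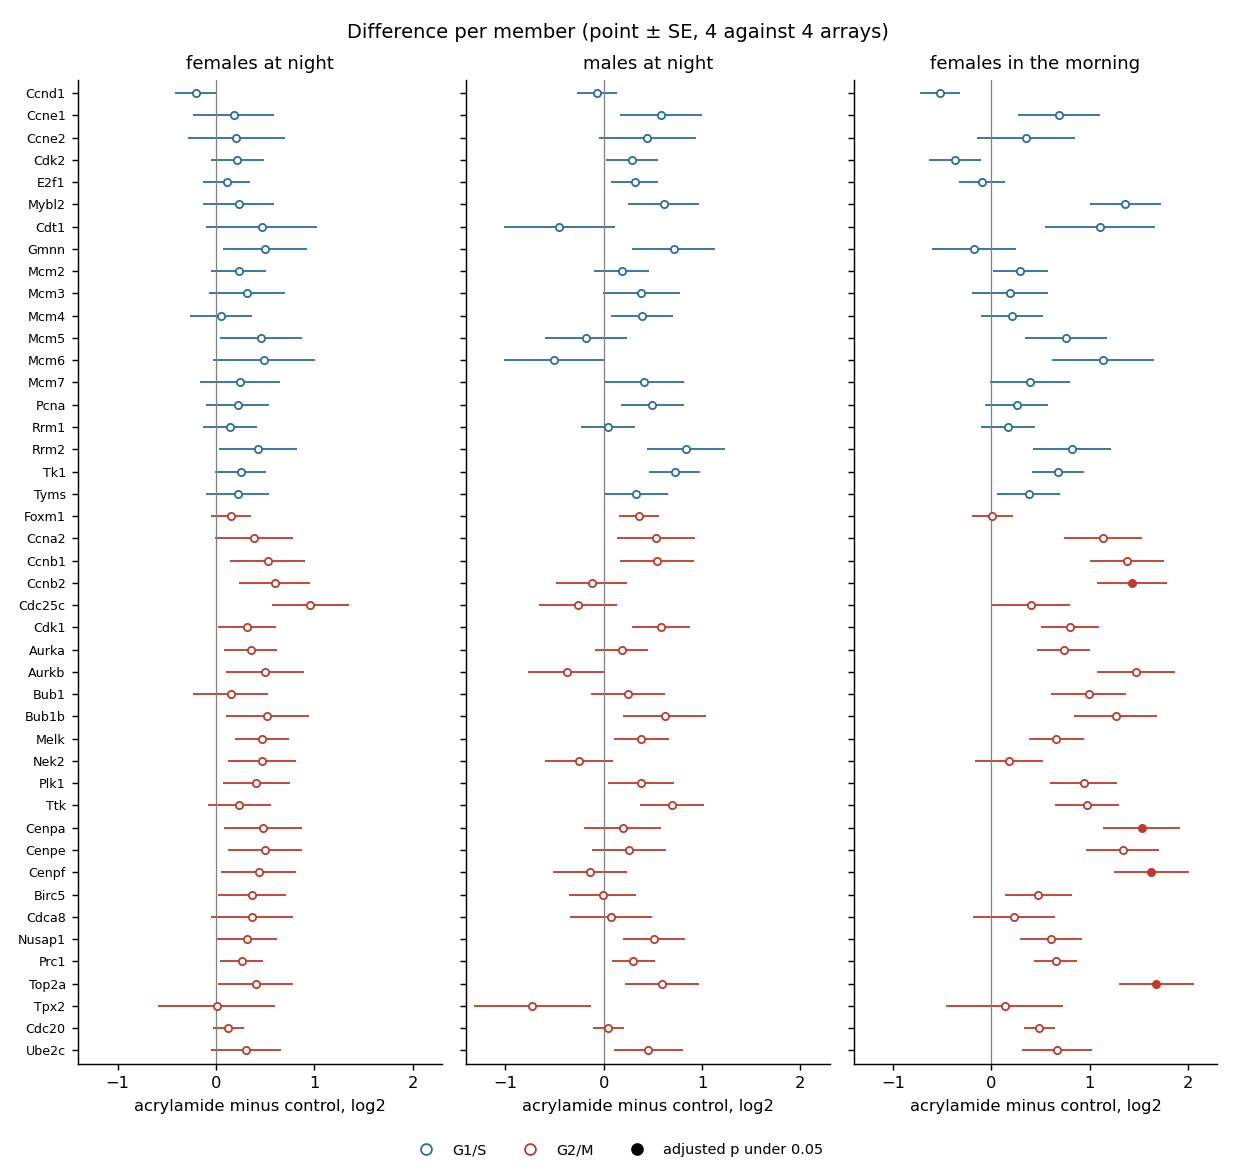
Acrylamide minus control for each of the 44 members (log2, point ± SE of the model, 4 against 4 arrays) in the 3 sets of pups, with filled points where adjusted p is under 0.05. The SE of a member uses its spread over all 24 arrays, so it is the same in the 3 panels. The filled points are Ccnb2, Cenpa, Cenpf and Top2a in the morning panel, at 1.43 to 1.68.

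The morning values were carried to a large extent by 1 array. On acrylamide replicate 2, 43 of the 44 members lay above the mean of their controls, by 1.93 on average, against 0.38, 0.28 and 0.08 on replicates 1, 3 and 4. Apart from replicate 2, the difference between G1/S and G2/M members appeared mainly on replicates 1 and 3. G1/S members averaged -0.03, -0.05 and 0.01 relative to controls on replicates 1, 3 and 4, and G2/M members 0.69, 0.54 and 0.14. On replicate 4 the G2/M mean minus the G1/S mean, 0.14, was within the range of the morning controls (-0.18 to 0.25). Replicates 1 and 3 also had the highest squamous epithelium list means, 0.44 and 0.97. Replicate 4 was at -2.76 and the morning controls at -2.89 to -1.71. The part of that tissue in the member values was not tested. Without replicate 2 the median member difference fell to 0.25, with -0.13 for G1/S (7 of 19 positive) and 0.43 for G2/M members (21 of 25 positive). Top2a (1.12, SE 0.26; limma adjusted p = 0.0295) and Cenpf (1.27, SE 0.36; limma adjusted p = 0.0482) then remained past the threshold. Ccnb2 (0.95; limma adjusted p = 0.0501) and Cenpa (1.14; limma adjusted p = 0.0666) were outside it.

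All 15 T cell and all 7 thymocyte markers tested were well above background on replicate 2. The same held on morning control replicate 4 and on several night arrays. On replicate 2 Dntt, the enzyme that adds bases during receptor rearrangement in thymocytes, was at 1.25, against -7.14 to -2.40 in the morning controls. Cd3g, a chain of the T cell receptor complex, was at 4.41 there against -1.93 to 0.49. Cd6 of the T cell list (-0.99 against -1.01 to -0.52) and Cd1d1 of the thymocyte list (-1.23 against -1.27 to -0.63) lay within the morning controls. The T cell list averaged 1.24 on replicate 2, against -3.18 to -1.68 in the morning controls and -4.39, -3.45 and -4.38 on replicates 1, 3 and 4; between 9 and 15 of its 15 genes were well above background on each array of the series. The part of these cells in the member values was not tested, and in bulk tissue more cells of a type and more RNA per cell cannot be told apart. The thymocyte list was at -1.93, -1.68 and -2.43 on replicates 1, 3 and 4, against -2.23 to -1.20 in the morning controls. Replicate 1 was also the array with little follicular signal, a list mean of -3.23 against 0.81 or higher on every other array. Without replicates 1 and 2 together the median was 0.16, with -0.04 for G1/S and 0.32 for G2/M members. No member then passed (lowest limma adjusted p = 0.298).

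**Figure D3:**
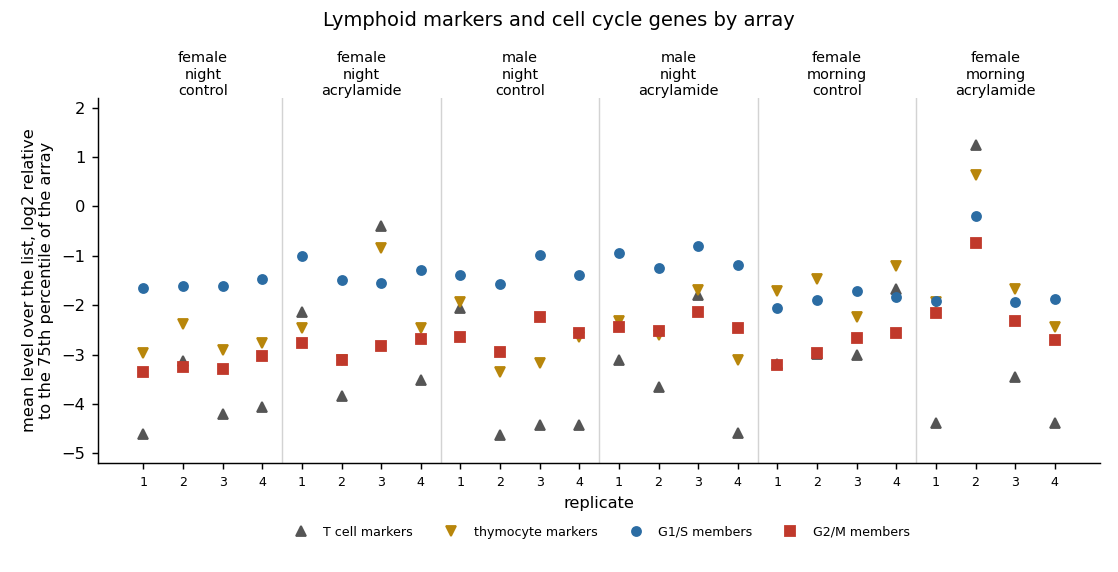
Mean level per array of 15 T cell markers, 7 thymocyte markers and the G1/S and G2/M members, log2 relative to the 75th percentile of the array, over 24 arrays in 6 groups. Morning acrylamide replicate 2 is the highest array for all 4 lists; female night acrylamide replicate 3, second for both lymphoid lists, is at -1.55 for G1/S and -2.82 for G2/M members, against -1.64 to -1.46 and -3.34 to -3.03 in its controls.

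**Figure D4:**
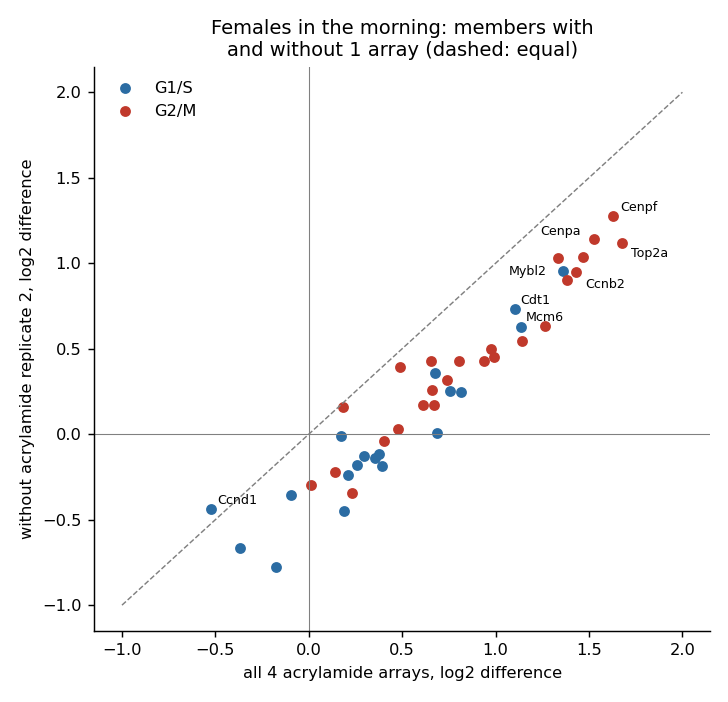
Acrylamide minus control in females in the morning for the 44 members, with all 4 acrylamide arrays (x axis) and without replicate 2 (y axis), log2, G1/S and G2/M in 2 colours; the dashed line marks equality. 43 of the 44 members lie below the line, and 12 of 19 G1/S and 4 of 25 G2/M members end below 0.

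The 2 morning slides gave different values. Within slide 3, with acrylamide replicates 2 and 3 and 3 controls, the median member difference was 1.18; within slide 4, with acrylamide replicates 1 and 4 and 1 control, it was -0.06. Cenpf (1.38 and 2.18), Top2a (2.01 and 1.25), Cenpa (2.07 and 0.64) and Ccnb2 (1.91 and 0.67) were positive on both. These 4 were chosen by their difference over the same arrays, so the shared sign is no independent support. The control on slide 4 was replicate 4, the female array with the raised Ube1y1 level. Acrylamide replicate 1 on that slide was the array with little follicular signal. The 4 calls fell to 0 when any 1 of the 4 morning controls, morning acrylamide replicate 1, any of the 4 female night controls, female night acrylamide replicate 1 or male night control replicate 1 or 2 was left out, and also with median centring or with the 8 morning arrays alone. They rose to 11 and 19 without acrylamide replicate 3 or 4.

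The distance between the 2 sets of members was computed array by array as the G2/M mean minus the G1/S mean, each relative to the 12 controls of the series. In the morning it was 0.79 ± 0.25 (SD, n = 4) with acrylamide and 0.32 ± 0.18 in controls, with ranges that overlapped (0.45 to 1.05 and 0.14 to 0.56). In females at night it was -0.22 ± 0.22 with acrylamide and -0.35 ± 0.06 in controls, and in males at night -0.05 ± 0.11 and 0.03 ± 0.08. The shift with acrylamide was 0.47 in the morning, 0.13 in females at night and -0.09 in males, and the morning shift was 0.49 without replicate 2.

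Averaged over the 3 differences, 42 of the 44 members were positive, with a median of 0.39 against -0.03 over all genes. No member passed the test (0.00493% of all genes did), and 22 were higher and 1 lower at an unadjusted p under 0.05, against 2.88% and 3.8% of all genes. The largest were Top2a (0.89, SE 0.22; limma adjusted p = 0.394), Ccnb1 (0.82, SE 0.22), Bub1b (0.80, SE 0.24), Mybl2 (0.74, SE 0.21) and Cenpa (0.73, SE 0.23), and the 2 negative ones Ccnd1 (-0.26, SE 0.12) and Tpx2 (-0.19, SE 0.34). A second, far dimmer Mcm4 probe gave -0.22 (SE 0.31) where the Mcm4 probe used gave 0.22. Without morning acrylamide replicate 2 the median was 0.25, and without replicate 4 Ccnb1 and Mybl2 passed.

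No member's acrylamide effect differed past the threshold between the sexes at night or between morning and night in females (limma; 0.0% of all genes called in either). Cdc25c was the member with an unadjusted p under 0.05 for sex, males minus females -1.22 (SE 0.56), where 1.13% of all genes were lower at that level. For time, Top2a (1.27, SE 0.54), Cenpf (1.19, SE 0.54) and Mybl2 (1.13, SE 0.51) had one, all larger in the morning, where 6.48% of all genes were. The other probes of Top2a and Cenpf gave -0.25 (SE 0.50) and -0.26 (SE 0.49) for the same quantity, and the median over members changed from 0.36 to -0.15 without morning acrylamide replicate 2.

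**Figure D5:**
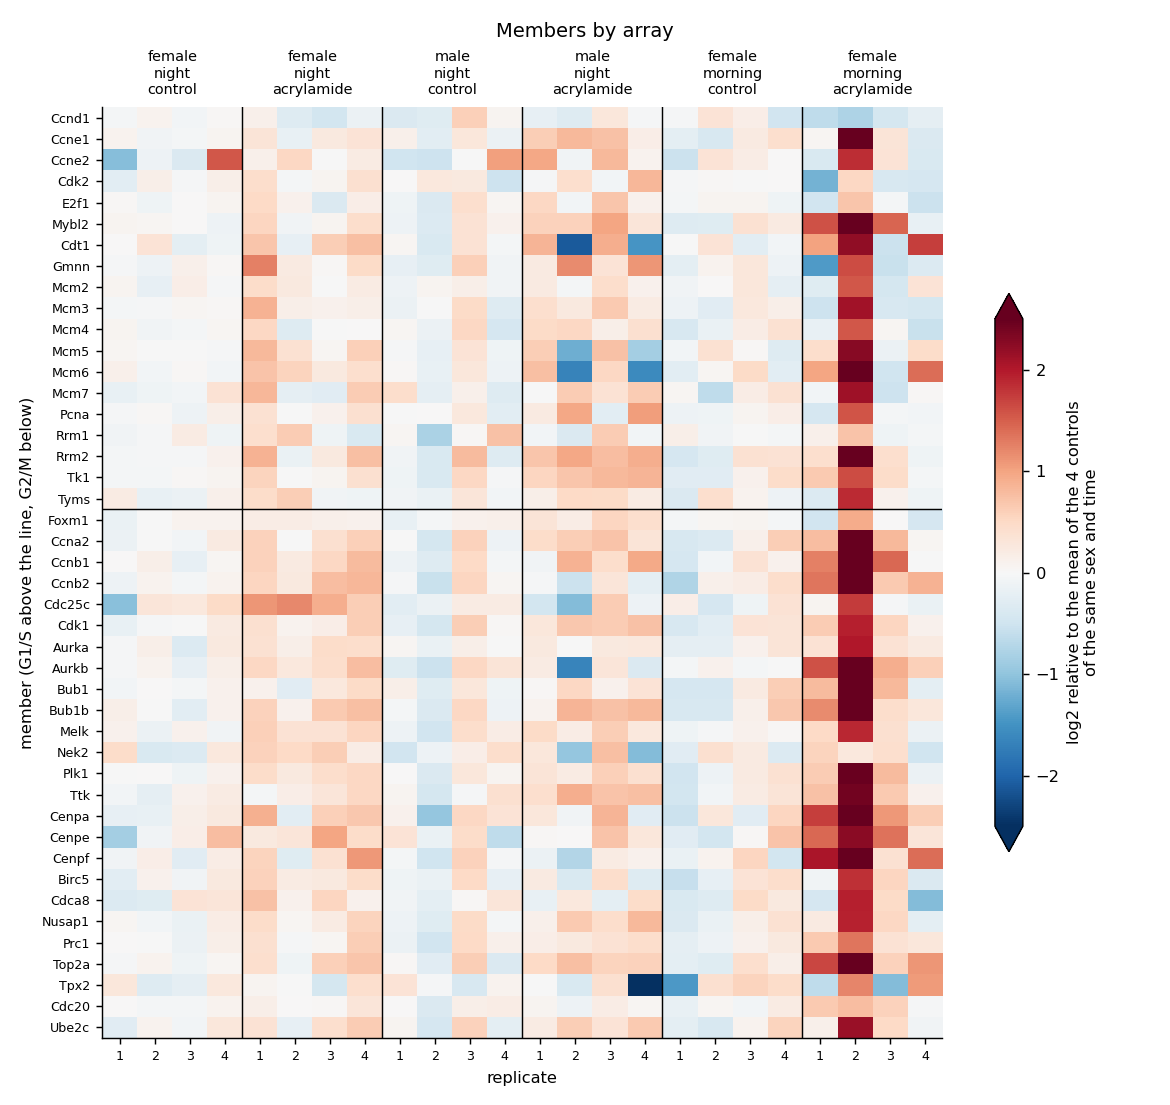
Level of each member (down the side, G1/S above the line and G2/M below) on each of 24 arrays, as log2 difference from the mean of the 4 controls of the same sex and time; colours saturate beyond 2.5. Morning acrylamide replicate 2 is high for 43 of the 44 members, and male acrylamide replicates 2 and 4 are low for Cdt1, Mcm5, Mcm6 and Nek2.

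Control glands of females were also compared between night and morning, with time inseparable from slide and scan session. In all, 9 members were called (limma), 6 lower and 3 higher at night, where 48.6% of all genes were called (27.8% lower and 20.8% higher), a larger share than that of the members. Arrays did not overlap for 14 members lower and 9 higher at night, against 30.2% and 26.8% of all genes. Cdc20, which activates the anaphase-promoting complex, had night levels of -1.23, -1.29, -1.29 and -1.16 and morning levels of -0.07, 0.17, 0.06 and 0.32. It was lower at night by a wide margin, -1.36 (SE 0.16; limma adjusted p = 4.6e-07). The other 5 lower at night were G2/M members too: Cdca8 (-1.26) and Birc5 (-0.93) of the chromosomal passenger complex, Ube2c (-0.90), the ubiquitin-conjugating partner of the anaphase-promoting complex, and the kinases Melk (-0.89) and Nek2 (-0.85). Nek2 was well above background on no night and 1 morning control array, at least 1.25-fold higher in the morning, and its difference turned to 0.38 with quantile normalization and to 0.06 with normexp and quantile normalization. The 3 higher at night were G1/S members: Mcm6 (1.62, SE 0.52), Ccnd1 (0.68, SE 0.21) and Mcm2 (0.68, SE 0.28). G2/M members had a median of -0.43 and G1/S members of 0.24, against 0.02 over all genes. Scaling mattered here: with median centring, which moved the median of all genes to 0.28, the member median was 0.01. Other probes of Cenpf, Foxm1, Mcm4, Mybl2 and Top2a had the opposite sign to the probe used, as for Cenpf (-1.55 and 0.55) and Top2a (-1.94 and 0.10).

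Between the sexes, 42 of 44 members were higher in male than in female controls at night, by a median of 0.52 against 0.00 over all genes, with 0.65 for G2/M and 0.27 for G1/S members. No member passed (limma; 0.00986% of genes called), 9 were higher at an unadjusted p under 0.05 against 0.73% of all genes, and 22 had arrays that did not overlap, all higher in males, against 2.0% of all genes. Ccnb2 had female levels of -3.77, -3.56, -3.70 and -3.55 and male levels of -2.63, -3.15, -2.04 and -2.53. It was the member with the largest difference, 1.06 (SE 0.36), picked after its values were seen. Ccnd1 (-0.28) and Cdk2 (-0.13) were the members lower in males. The median stayed between 0.41 and 0.62 when any 1 array was left out.

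Other genes of the cycle, from lists of replication, mitosis, inhibitors and G1 entry, were set beside the members. Of 60 further mitotic genes tested, 51 had positive differences in the morning (median 0.57, against -0.11 over all genes), and 4 were called, all higher, where 0.434% of all genes were called higher. These were Incenp (1.19, SE 0.26), the scaffold of the passenger complex, Arhgap11a (1.16, SE 0.27) and the mitotic kinesins Kif2c (1.42, SE 0.37) and Kif23 (0.78, SE 0.19), with limma adjusted p of 0.0351 to 0.0494. Cdca7 had the largest difference of that list (1.93, SE 0.55; limma adjusted p = 0.0635). Of 47 further replication genes 36 were positive (median 0.28) and none called. Timeless (-1.55, SE 0.56) and Pole2 (1.29, SE 0.46) had the largest differences. Morning acrylamide replicate 2 was again the highest array. The mean level of the mitotic list was -0.39 there, against -1.86, -1.66 and -2.21 on replicates 1, 3 and 4 and -2.33 to -1.82 in the controls. The replication list was at -1.13, against -2.60, -2.38 and -2.45, and -2.47 to -2.36 in the controls. How the 4 mitotic calls fared with arrays left out is not given here. At night the mitotic list had medians of 0.31 in females and 0.35 in males and the replication list 0.22 and 0.28, against 0.02 and 0.00 over all genes, with no calls in either list. The largest in females at night were the helicase Mcm8 (0.65, SE 0.37), the origin recognition subunit Orc1 (0.64, SE 0.49), the centromere gene Cenpi (0.67, SE 0.43) and Gtse1 (0.60, SE 0.41). In males they were Orc6 (1.23, SE 0.37), Mcm8 (1.13, SE 0.37), the kinase Pbk (1.06, SE 0.35) and the condensin subunit Smc4 (0.85, SE 0.31).

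Of 21 genes tested from the list of inhibitors, 8 were positive in the morning (median -0.07) and none was called. That list also holds the MuvB genes Lin9, Lin37, Lin52 and Lin54, so it is not of inhibitors alone. Ccng1, a p53 target, differed by -1.96 in females at night, -1.82 in males and 1.36 in the morning (SE 0.78 each), and Cdkn1c, the inhibitor p57, by -0.76, -0.76 and 0.88 (SE 0.47 each). Of 14 genes of G1 entry 10 were positive in the morning (median 0.18) with no calls, and the largest differences were those of Mycn (-2.23, SE 0.83) and Skp2 (0.85, SE 0.36). In males at night Myc differed by 0.89 (SE 0.31) and E2f8 by 0.66 (SE 0.32), and in females at night Ccnd2 by 0.35 (SE 0.19) and Cdc34 by -0.35 (SE 0.24).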

How the data were processed

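Thyroid RNA of 24 samples was hybridised with 1 dye (Cy3) to Agilent arrays. Per the file headers, the authors' deposited intensity values (processed signal, background-corrected) came from Agilent Feature Extraction 10.1.1.1 with probe positions on rn4. Per the file headers, deposited spot flags, stored as 0 or 1 (unit other), mark spots well above background, saturated spots and outliers. The deposited series matrix holds log2 values centred on each array's median, as set against the scanner values; its processing is not given in the sources used here.

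Outlier and control spots were left out, spots of 1 probe were averaged, and log2 signal minus the array's 75th percentile was used. Probes well above background on at least 3 of 4 arrays of a group were kept (23416 of 30367), with the highest-mean probe per gene (20286 genes). A group-means model over all 24 arrays (limma 3.58.1, R 4.3.3; data.table version 1.17.8, statmod 1.5.0, Python 3.11.15, pandas 2.3.3, numpy 2.4.6) had 18 residual degrees of freedom. Tests were two-sided and Benjamini-Hochberg adjusted over all genes, with a threshold of 0.05.

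The members and lists were chosen with earlier results of these data known. A member was named where it passed the threshold, was among the 5 largest positive or 3 largest negative acrylamide differences, or had another probe of opposite sign; Top2a, Ccnb1, Ccnd1, Cdk1, Mcm5 and Pcna were given throughout, and so were pathway genes past the threshold and 2 examples per list. In simulated data of 20286 genes with 100 changed per size, the model recovered 45%, 48% and 39% of log2 changes of 1 and 82%, 85% and 88% of changes of 2, for night females, night males and morning females. The simulated noise was normal with 1 spread per gene in every group. The rates therefore leave out single arrays that stand apart, as in the morning acrylamide group. Alternatives were quantile normalization, median centring, normexp (offset 50) with quantile normalization, the series matrix, other filters, the mean of all probes, array weights, an intensity trend, a replicate block, slide as a term, the stratum alone and leaving out each array. Leaving out morning acrylamide replicates 1 and 2, and the 75th percentile over the probes kept, were chosen after seeing the data.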

Additional observations from a re-analysis of the deposited data

Results flagged for a closer look

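Among 144 sets of 4 arrays, 6 held an array far from the other 3. In independent sets chance would flag about 5%. These sets share arrays and members, so the count cannot tell whether a flagged array stands apart by chance. The arrays below are given as values only. On female morning acrylamide replicate 2 the mean over all members lay 1.93 above the controls and the mean over G1/S members 1.69 above them, and Cdc25c was at -5.50, each far above the other 3 arrays. Cdc25c was at -7.84 on female night control replicate 1, far below the other controls. Cdt1 was at -5.44 on female night acrylamide replicate 2, and Tpx2 was at -3.44 on female morning control replicate 1, each far below the other 3 arrays of its group. In 40 pairs of groups checked, there were 0 in which every array moved one way in one group and the opposite way in the other.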

How the results depend on the processing

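The 4 calls in females in the morning depended on the processing, and the cause was not tested. They became 8 with quantile normalization, 8 with normexp and quantile normalization, 7 with an intensity trend and robust prior, 2 with the mean of all probes and 2 with a replicate block. They became 0 with median centring, the series matrix, no filter, array weights, the 8 arrays of the stratum alone, slide as a term, or without acrylamide replicates 1 and 2. Leaving out 1 array at a time gave 0 to 19. The same gave 0 to 2 calls for the mean of the 3 differences, 0 to 1 for morning minus night and 5 to 15 for night against morning. Median differences then ranged from 0.25 to 0.90 in females in the morning, from -0.15 to 0.53 for morning minus night and from -0.03 to 0.20 for males minus females. Night against morning gave 20 calls with array weights and 15 without the 2 arrays; its median became 0.12 with quantile normalization, 0.013 with median centring, 0.026 with normexp and 0.011 with the series matrix. Males against females gave 2 calls with array weights.

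Signs turned for Ccnd1 in males (0.10 with median centring, 0.10 with the series matrix, 0.13 with array weights), Cdt1 in males (0.48 with array weights), Mcm5 in males (0.014 with quantile normalization, 0.0061 with normexp, 0.43 with array weights), Mcm6 in males (0.32 with array weights), Gmnn in the morning (0.16 with array weights, 0.044 with slide as a term), Pcna in the morning (-0.060 without the 2 arrays) and Nek2 at night against morning (0.38 with quantile normalization, 0.058 with normexp). Leaving out 1 array gave ranges across 0 for males' Ccnd1 (-0.19 to 0.13), Cdt1 (-0.91 to 0.10), Mcm5 (-0.48 to 0.17) and Tpx2 (-1.10 to 0.00053), and for morning Gmnn (-0.78 to 0.24) and Pcna (-0.18 to 0.49). The labels tie no replicate number to a litter or batch, and deviations of same-numbered arrays correlated from -0.23 to 0.44, so the numbers were not taken as pairs; 12 of 24 arrays matched their own number best, a hint from the data and not from the design. With the replicate block the night comparisons kept 0 calls. G2/M minus G1/S was not run with array weights, an intensity trend or a replicate block. Cenpa, Nek2, Cdt1 and Cdc25c lay near background in some groups, which limits their folds.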

Other observations

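On male acrylamide replicates 2 and 4 the replication genes split. Pcna stood at 1.90 and 1.97 and Gmnn at -0.92 and -0.99, each above the other 6 male arrays, while Mcm5 (-3.29 and -2.91), Mcm6 (-3.90 and -3.81) and Cdt1 (-6.95 and -6.32) were below all 6. For Mcm6 these levels lay nearer to those of the female morning controls (-4.42 to -3.68) than to those of the male night controls (-2.40 to -1.94). Mcm6 was picked after its values were seen. The Mcm2 probe used, at -0.36 and -0.21, lay within the male night controls (-0.45 to -0.17), above the morning controls (-1.42 to -0.91). The second Mcm2 probe, at -6.49 and -5.26, was nearer to the morning controls (-5.41 to -4.87). Tg, at 8.67 and 8.37, lay within the male night controls (7.95 to 9.27), above the morning controls (6.77 to 7.51).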
